A study of Mus musculus with 8 samples.

Results

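Genes of fatty acid oxidation and of the nuclear receptor PPAR alpha were followed in the liver of thymectomised and intact mice. The 36 genes were chosen by name, for their place in mitochondrial and peroxisomal fatty acid oxidation, in omega-oxidation and in the lipid droplet. No measured value entered the rule, but the list was drawn up with earlier results of these data known. All 36 were on the array, with 53 probes, and 35 of them had a probe bright enough to be tested, out of 16495 tested genes. The exception was Cidea, a lipid droplet protein best known from brown fat, whose 1 probe passed the background flag in 0 of 4 Tx and 0 of 4 nonTx livers.

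Tx livers came from 4 female NFS/sld mice that lost their thymus by surgery as newborns, at day 3, and they were taken 8 weeks later. The nonTx livers came from 4 female NFS/sld mice with no thymectomy. Both groups therefore carry the sld background of the strain, and the thymectomised animals serve as a model of primary Sjögren's syndrome. The labels call the replicates independent, give no age for the nonTx mice beyond this, mention no sham operation, and give neither the feeding state nor the time of day at which livers were taken. Total liver RNA was labelled with 1 dye and hybridised to Agilent arrays, 1 array per sample.

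PPAR alpha is a receptor of hepatocytes that binds fatty acids and, as a partner of the retinoid X receptor, switches on the genes that burn them, most of all during fasting. Long-chain fatty acids are bound in the cytosol, loaded onto carnitine, carried into the mitochondrion and shortened there by beta-oxidation. Peroxisomes shorten the very long chains, and the cytochromes P450 of the Cyp4a family oxidise the far end of the chain, which is the omega-oxidation route. Cyp4a10, Cyp4a14, Acot1, Vnn1 and Ehhadh are classical responsive targets of the receptor in mouse liver.

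Levels below are the spot signal divided by the 75th percentile of that array, so that a level of 1 equals the signal at that percentile. The differences are on the log2 scale, Tx minus nonTx, with the standard error of the fit across all probes. The 75th percentile of the signal lay between 224.8 and 330 units on the Tx arrays and between 273.6 and 301.8 on the nonTx arrays, and arrays correlated with each other at 0.977 to 0.994. Hepatocyte markers had summed log2 levels of 12.13 to 12.40 in Tx and 12.26 to 12.37 in nonTx, a sum that the brightest markers dominate. Of the 12 markers, 7 had a higher mean in Tx and 5 a lower one, with differences of -0.37 to 0.21. All Tx arrays were below all nonTx arrays for 1 of them, against 2.95% of all genes. All 8 arrays were on 1 slide with 1 scan time, with Tx in row 2 and nonTx in row 1, so that row and group cannot be told apart. In whole liver RNA, fewer cells of a type and less RNA per cell cannot be told apart either.

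Of the members, 28 of 36 had a promoter of 300 bases in the RefSeq table of GRCm38, running from 250 bases before the gene's start to 50 after it. PPAR alpha is known to bind a direct repeat of the letters AGGTCA with 1 base of any kind between its copies. That motif was searched on both strands with at most 2 mismatches among its 12 fixed letters, and only the best match of each promoter was kept. It was found in 5 of 28 members (17.9%) and in 1190 of 27025 genes with a promoter in the table (4.40%). A match is only a description of the letters in this window. The 5 matches are shown in capitals with their flanks, because the members that hold them are among those whose levels follow; each is read along the strand of the gene.
Fabp1, GRCm38 chr6:71199788-71199848, plus strand, 1 mismatch: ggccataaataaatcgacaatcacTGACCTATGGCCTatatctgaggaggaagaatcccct
Cd36, GRCm38 chr5:17835923-17835983, minus strand, 2 mismatches: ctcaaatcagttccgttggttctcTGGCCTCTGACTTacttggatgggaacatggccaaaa
Plin2, GRCm38 chr4:86670248-86670308, minus strand, 2 mismatches: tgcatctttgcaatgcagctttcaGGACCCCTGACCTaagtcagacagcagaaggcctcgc
Acot4, GRCm38 chr12:84038358-84038387, plus strand, 2 mismatches: ccgaagcaTGACCTTTGGCCGgtctgtgcc
Slc25a20, GRCm38 chr9:108662134-108662163, plus strand, 2 mismatches: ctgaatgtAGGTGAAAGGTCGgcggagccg
The match began 67 bases before the gene's start in Fabp1, 63 in Cd36, 225 in Plin2 and 13 in Acot4, where it lay on the strand opposite to the gene. In Slc25a20 it began 7 bases after the start, on the strand of the gene. No promoter was in the table for Angptl4, Decr1, Acaa2, Cidea, Vnn1, Cyp4a10, Cyp4a14 and Cyp4a31.

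No member of the pathway passed the test between Tx and nonTx livers. By limma with Benjamini-Hochberg adjustment over all 30955 tested probes, 0 of 35 members had an adjusted p under 0.05, against 0% of all genes, and the smallest adjusted p of a member was 0.379, for Fabp1. At an unadjusted p under 0.05 the count was also 0 of 35 members, each by its brightest probe, against 13.9% of all genes. Of the 35 members, 31 had a higher mean in Tx and 4 a lower one (Pdk4, Decr2, Plin2 and Cpt2), against 56.3% of all genes with a difference above 0. The median difference of the members was 0.15, and that of all genes was 0.03. With quantile normalization instead, 20 of 35 members had the higher mean in Tx and the members' median was 0.02, so the count by direction depends on the scaling.

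On most members, 1 nonTx array stood below the other arrays. That array, nonTx replicate 4, had the lowest level of all 8 arrays for 29 of 35 members (82.9%), while it had the lowest level for 14.5% of all tested genes. Among the 52 tested probes of the members, 41 had their lowest level on that array. Against the mean of the other 3 nonTx arrays, nonTx replicate 4 was lower for 33 of 35 members, with a median log2 difference of -0.44. Over all genes that median was 0.00, and 8130 of 16483 genes were lower. Fabp1 and Decr2 were the 2 members that were not lower on it.

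**Figure D1:**
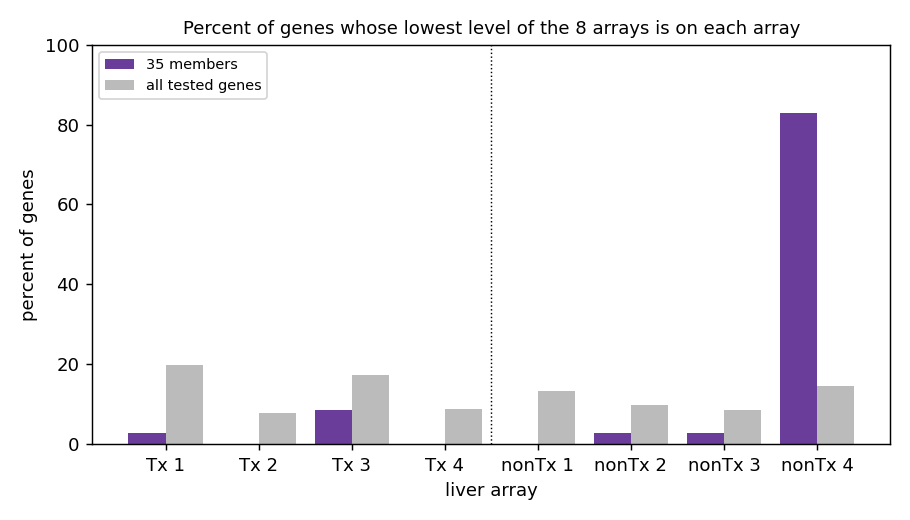
The percentage of the 35 members (purple bars) and of all tested genes (grey bars) that had their lowest level of the 8 arrays on each liver array, with Tx arrays left of the dotted line and nonTx arrays right of it. nonTx replicate 4 takes 82.9% of the members and 14.5% of all genes, and no other array takes more than 8.57% of the members.

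The wider list of pathway genes described below was also lower on nonTx replicate 4 than on the other nonTx arrays, with a median log2 difference of -0.10 and 76 of 120 genes lower. That median was -0.15 for the adipocyte markers, with 5 of 8 lower, and -0.13 for the muscle markers, with 2 of 4 lower. The hepatocyte markers of nonTx replicate 4 were higher by a median of 0.10 on the log2 scale (3 of 12 lower), its macrophage markers by 0.34 (2 of 12 lower) and its T cell markers by 0.25 (2 of 10 lower). The part of these cell types in the low levels of the members was not tested. The fasting and gluconeogenesis genes were higher on it by a median of 0.30, with 8 of 20 lower. Its 75th percentile of 273.6 was just under that of nonTx replicate 2, at 276.0, and its 55.6% of probes well above background lay within the range of the other nonTx arrays, 54.2% to 57.1%.

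With nonTx replicate 4 included, the members varied more among nonTx livers than among Tx livers. That array was the lowest nonTx array for 32 of 35 members, and the spread without it was not computed. The median standard deviation of a member, on the log2 scale, was 0.18 in Tx and 0.32 in nonTx, and it was larger in nonTx for 28 of 35 members. Over all genes the medians were 0.21 in Tx and 0.15 in nonTx, and 30.3% of genes varied more in nonTx. Without nonTx replicate 4, 20 of 35 members had a higher mean in Tx and 15 a lower one, against 55.9% of all genes with a difference above 0, and the members' median difference was 0.02. Leaving that array out moved the difference of 33 members downwards and brought that of 25 members nearer to 0.

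**Figure D2:**
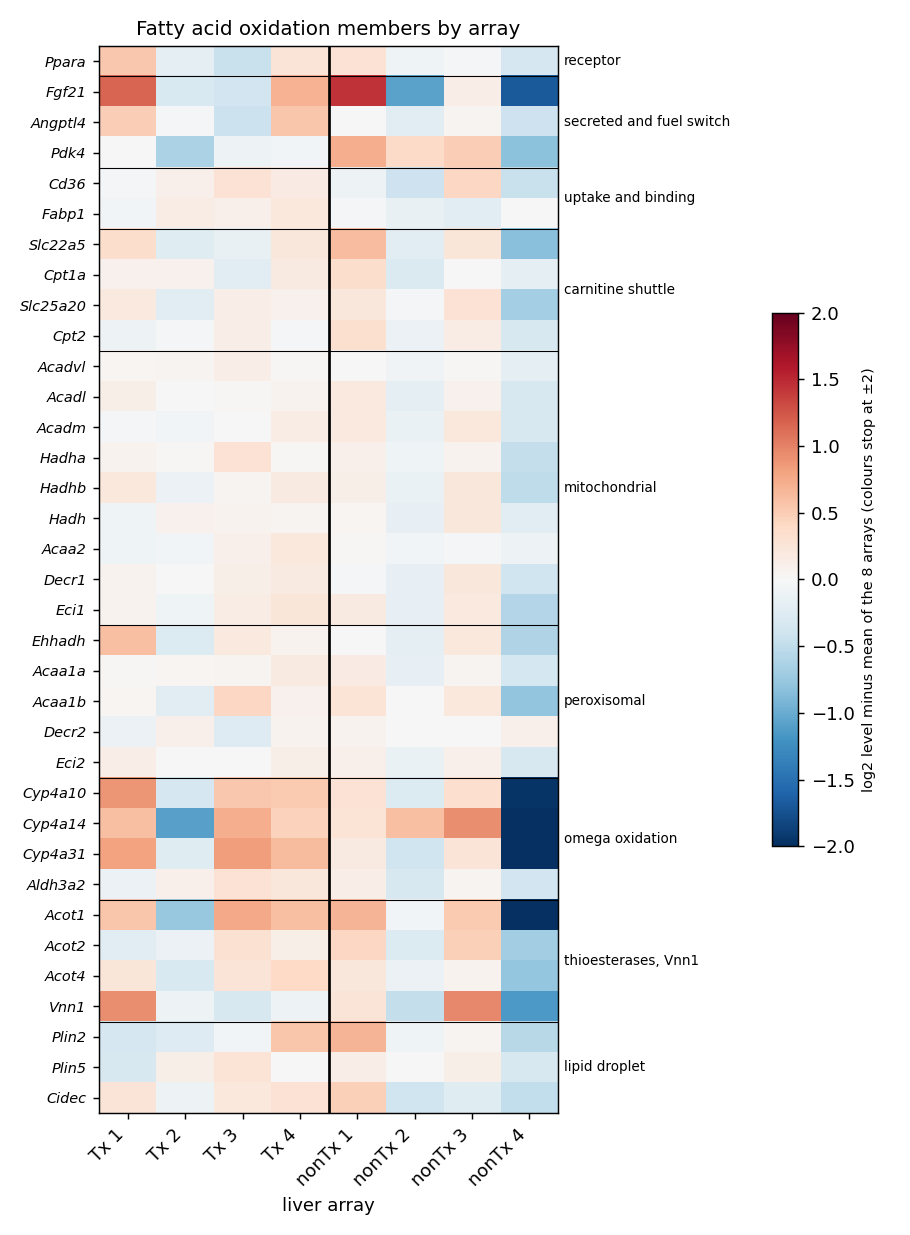
The log2 level of each of the 35 tested members (rows, ordered by role) on each array (columns, Tx left of nonTx), minus the gene's mean over the 8 arrays, as colour that stops at 2 above and 2 below. The column of nonTx replicate 4 holds the lowest cell of 29 of the 35 rows, and its lowest cells are those of Cyp4a14, Acot1, Cyp4a31, Cyp4a10 and Fgf21.

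The receptor itself showed no difference beyond its spread. Ppara, which encodes PPAR alpha, had levels of 57.5, 34.6, 29.1 and 47.6 on Tx arrays 1 to 4, against 48.3, 37.2, 39.0 and 31.5 on nonTx arrays 1 to 4. The groups overlapped over almost their whole range, with the highest and the lowest value both in Tx. The difference was 0.08 ± 0.21 (SE, n = 4 each; limma adjusted p = 0.881), and it was -0.02 without nonTx replicate 4.

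Of the secreted factors and the fuel switch, none passed the test. Fgf21, the fasting hormone that the liver releases under PPAR alpha, had levels of 2.61, 0.944, 0.896 and 1.88 in Tx, against 3.18, 0.555, 1.28 and 0.362 in nonTx. Its standard deviation on the log2 scale was 0.76 in Tx and 1.39 in nonTx, both larger than its difference between the groups. The highest and the lowest level were both in nonTx. Its difference was 0.59 ± 0.62 (SE; limma adjusted p = 0.674). It was 0.12 ± 0.57 without nonTx replicate 4, and 1.17 ± 0.48 without nonTx replicate 1 (unadjusted p = 0.0384, limma adjusted p = 0.528). Angptl4, a secreted inhibitor of lipoprotein lipase, had levels of 99.7, 69.6, 52.8 and 103.6 in Tx, against 70.5, 60.6, 74.0 and 53.2 in nonTx. Tx replicates 1 and 4 were the highest of the 8, and Tx replicate 3 was the lowest. The difference of 0.29 ± 0.21 had a limma adjusted p of 0.524.

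Pdk4, the kinase that shuts pyruvate dehydrogenase and so spares glucose when fat is burned, was the member with the most negative difference. Its levels were 2.17, 1.40, 2.02 and 2.10 in Tx, against 3.57, 2.82, 3.04 and 1.23 in nonTx. The Tx arrays lay below nonTx replicates 1 to 3, and nonTx replicate 4 lay below all of them. With all 8 arrays the difference was -0.39 ± 0.30 (SE; limma adjusted p = 0.554). Without nonTx replicate 4 it was -0.72 ± 0.17, all 4 Tx arrays were below the 3 nonTx arrays (4.38% of all genes), and the unadjusted p was 0.00181 with a limma adjusted p of 0.387. At that setting 1 member had an unadjusted p under 0.05 with a lower level in Tx, against 3.88% of all genes.

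Both genes of fatty acid uptake and binding had a higher mean in Tx. Fabp1, the most abundant fatty acid binding protein of the hepatocyte cytosol, had levels of 284.6, 327, 318 and 343 in Tx, against 290.7, 267, 252 and 298 in nonTx. Tx replicates 2 to 4 were above every nonTx array, and Tx replicate 1 lay within the nonTx range. The difference of 0.20 ± 0.09 had the smallest p of all members (unadjusted p = 0.0514, limma adjusted p = 0.379). Without nonTx replicate 4 it was 0.24 ± 0.10 (unadjusted p = 0.0435, limma adjusted p = 0.517), the 1 member past an unadjusted 0.05 in that direction, against 6.4% of all genes. Cd36, a fatty acid carrier of the cell membrane, had levels of 1.61, 1.76, 1.99 and 1.84 in Tx, against 1.53, 1.23, 2.19 and 1.21 in nonTx. The difference was 0.27 ± 0.18 (limma adjusted p = 0.504), and the highest level of all was that of nonTx replicate 3.

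The 4 genes of the carnitine shuttle, which moves long-chain fatty acids into the mitochondrion, had differences between -0.01 and 0.10. Cpt2, which takes the acyl chain off carnitine inside the mitochondrion, had levels of 71.5, 76.2, 84.1 and 75.7 in Tx, against 95.7, 71.0, 85.6 and 61.4 in nonTx. The Tx values lay inside the nonTx range, and the difference was -0.01 ± 0.13 (SE; limma adjusted p = 0.978). Cpt1a, the rate-limiting entry step, ranged from 37.3 to 49.2 in Tx and from 35.5 to 55.5 in nonTx, with a difference of 0.06 ± 0.14. The carnitine importer Slc22a5 and the acylcarnitine carrier Slc25a20 both had a difference of 0.10, with standard errors of 0.28 and 0.20. The other nonTx arrays exceeded nonTx replicate 4 by 2.07-fold for Slc22a5 and by 1.78-fold for Slc25a20.

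All 9 mitochondrial beta-oxidation genes had a higher mean in Tx, by 0.02 to 0.20, and none passed the test. Without nonTx replicate 4 the count was 7 of 9, with Acadm and Hadh at -0.077 and -0.0014, and under quantile normalization it was 4 of 9. Acadvl, the dehydrogenase that starts the cycle on very long chains, had levels of 195, 198, 208 and 194 in Tx, against 192, 182, 193 and 167 in nonTx. It was the 1 member of 35 with all 4 Tx arrays above all 4 nonTx arrays, which held for 5.11% of all genes, and the gap was between Tx replicate 4 and nonTx replicate 3. The difference was 0.12 ± 0.08 (limma adjusted p = 0.499), and under quantile normalization it was -0.030 and the groups overlapped. Without nonTx replicate 4 it was again the 1 member with all Tx arrays above, against 7.2% of all genes. No member had all Tx arrays below all nonTx arrays, which held for 2.95% of all genes.

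Hadha, the alpha subunit of the trifunctional protein that carries out the later steps on long chains, had levels of 8.82, 8.53, 10.3 and 8.49 in Tx, against 9.02, 7.89, 8.82 and 6.01 in nonTx. Tx replicate 3 was the highest and nonTx replicate 4 the lowest, and the other 6 arrays were mixed. The difference was 0.20 ± 0.13 (limma adjusted p = 0.502). Decr1, needed for unsaturated chains, had levels of 226.8, 213.6, 233.6 and 244.6 in Tx, against 211.8, 191, 252 and 163 in nonTx. Its highest level was in nonTx replicate 3 and its difference was 0.18 ± 0.13 (limma adjusted p = 0.516). Acaa2, the thiolase of the last step, had levels of 479, 489.6, 547 and 586 in Tx, against 514, 488, 496 and 474 in nonTx, a difference of 0.09 ± 0.09 (limma adjusted p = 0.661). The remaining 5 mitochondrial genes, Acadl, Acadm, Hadhb, Hadh and Eci1, had differences of 0.11, 0.02, 0.16, 0.06 and 0.19, and each had its lowest level in nonTx replicate 4.

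Of the 5 peroxisomal genes, 4 had a higher mean in Tx and Decr2 a lower one, and none passed the test. Without nonTx replicate 4 the count was 3 of 5, and under quantile normalization it was 1 of 5. Ehhadh, the bifunctional enzyme of the peroxisomal cycle, had levels of 64.9, 35.7, 49.1 and 45.2 in Tx, against 42.7, 37.5, 49.9 and 28.3 in nonTx. Tx replicate 1 stood highest and nonTx replicate 4 lowest, and the difference was 0.30 ± 0.20 (SE; limma adjusted p = 0.513). Acaa1a, a peroxisomal thiolase, had levels of 229, 231.5, 234 and 256 in Tx, against 252, 202, 234 and 176 in nonTx, a difference of 0.15 ± 0.11 (limma adjusted p = 0.553). Its near copy Acaa1b had the same size of difference, 0.15 ± 0.22. Its level in nonTx replicate 4 was 66.1, against 114 to 137 on the other nonTx arrays. Eci2 had a difference of 0.12 ± 0.11 and Decr2 one of -0.10 ± 0.09.

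Cyp4a31 and Cyp4a10, of the 4 omega-oxidation genes, had the largest differences of all members, and Cyp4a14 had the largest standard deviation within nonTx. None of the 4 passed the test. Cyp4a31, a fatty acid omega-hydroxylase, had levels of 254, 123, 260.5 and 226 in Tx, against 164, 111, 173 and 34.7 in nonTx. Tx replicates 1, 3 and 4 were above every nonTx array, while Tx replicate 2 lay among the nonTx arrays and nonTx replicate 4 lay below all others. The difference of 1.02 ± 0.47 had an unadjusted p of 0.0549 and a limma adjusted p of 0.384. It was 0.50 ± 0.27 without nonTx replicate 4 (limma adjusted p = 0.542).

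Its close relative Cyp4a10 had levels of 79.3, 34.03, 62.9 and 62.2 in Tx, against 52.7, 35.7, 54.5 and 11.1 in nonTx. The same 3 Tx arrays were the highest of the 8, and Tx replicate 2 was below nonTx replicates 1 to 3. The difference was 0.80 ± 0.47 (limma adjusted p = 0.458), and 0.28 ± 0.27 without nonTx replicate 4. All 3 probes of Cyp4a10 gave differences between 0.77 and 0.88, and the second probe of Cyp4a31 gave 0.88. Cyp4a10 and Cyp4a31 are near-identical copies, so that their probes may share RNA and are not independent of each other.

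Cyp4a14, which is among the genes most strongly induced by PPAR alpha agonists in mouse liver, had levels of 1.38, 0.427, 1.50 and 1.25 in Tx, against 1.104, 1.38, 1.74 and 0.159 in nonTx. It had 1 low array in each group, Tx replicate 2 and nonTx replicate 4, and the other 6 overlapped. The difference was 0.35 ± 0.70 (SE; limma adjusted p = 0.839) and it turned to -0.43 ± 0.40 without nonTx replicate 4. The other nonTx arrays exceeded nonTx replicate 4 by 8.70-fold for Cyp4a14, 4.22-fold for Cyp4a31 and 4.21-fold for Cyp4a10.

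Aldh3a2, the dehydrogenase that clears fatty aldehydes, had levels of 50.1, 58.1, 66.2 and 63.6 in Tx, against 59.2, 43.6, 56.0 and 41.8 in nonTx. Its difference was 0.26 ± 0.14 (limma adjusted p = 0.428), with Tx replicates 3 and 4 above every nonTx array. Of its 4 probes, 3 had a higher mean in Tx, by 0.18 to 0.47, and the dimmest had a lower one, by -0.31. The probe at 0.47, which is not the brightest, had an unadjusted limma p of 0.0284 (limma adjusted p = 0.346). Probes of the same gene differed in sign for 6 of the 12 members with several tested probes.

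**Figure D3:**
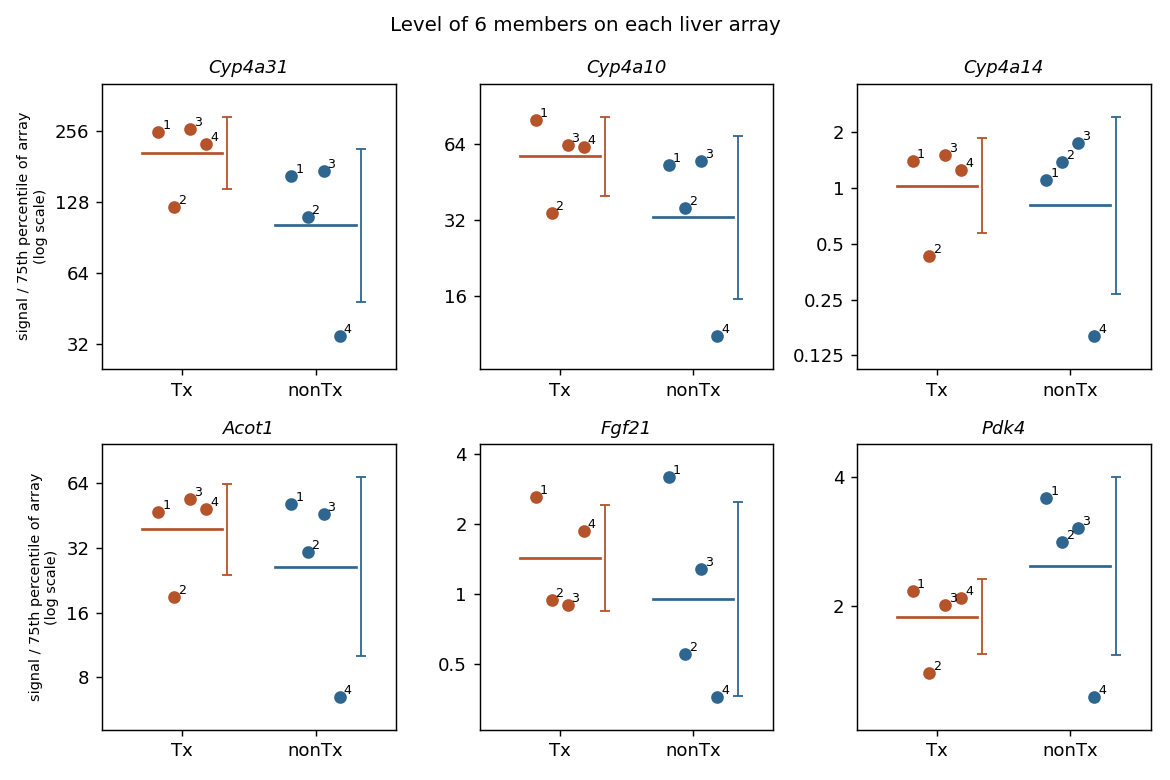
Level of 6 members on each liver array, as signal over the array's 75th percentile on a log axis, with Tx left and nonTx right in each panel. Points are arrays numbered by replicate, the line is the mean of the log2 values and the bar is 1 SD on that scale (n = 4 each). For Cyp4a31, Cyp4a10, Cyp4a14 and Acot1, replicate 2 is the lowest Tx array and replicate 4 the lowest of all.

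The acyl-CoA thioesterases, which split fatty acids off coenzyme A, had no member past the test either. Acot1, the cytosolic form, had levels of 47.1, 18.9, 53.9 and 48.3 in Tx, against 51.3, 30.7, 46.1 and 6.50 in nonTx. Its lowest Tx array was again replicate 2, and the other nonTx arrays exceeded nonTx replicate 4 by 6.42-fold. The difference was 0.57 ± 0.60 (SE; limma adjusted p = 0.673), and it was -0.10 ± 0.35 without that array. The mitochondrial Acot2, a close copy of Acot1, ranged from 1.84 to 2.67 in Tx and from 1.33 to 2.99 in nonTx, a difference of 0.04 ± 0.25. The peroxisomal Acot4 had a difference of 0.30 ± 0.22. Vnn1, a pantetheinase that recycles the building block of coenzyme A, ranged from 4.82 to 11.4 in Tx and from 2.72 to 11.8 in nonTx, a difference of 0.20 ± 0.42.

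The lipid droplet genes had a median difference of 0.03, and none passed the test. Plin2, the main coat protein of hepatocyte droplets, had levels of 78.4, 82.4, 95.2 and 145 in Tx, against 157, 93.4, 102 and 67.1 in nonTx. The highest and the lowest level were both in nonTx, and the difference was -0.04 ± 0.26 (SE; limma adjusted p = 0.952). Plin5, which ties droplets to mitochondria, had a difference of 0.03 ± 0.14. Cidec, which helps droplets fuse and grow, had levels of 0.812, 0.638, 0.787 and 0.837 in Tx, against 0.946, 0.518, 0.576 and 0.486 in nonTx. All Tx arrays were above nonTx replicates 2 to 4 and below nonTx replicate 1, and the difference was 0.33 ± 0.20 (limma adjusted p = 0.474). Of 13 adipocyte markers, which include Cidec, 8 were tested, all 8 with a higher mean in Tx; their summed log2 level was 7.83 to 8.45 in Tx and 7.73 to 8.34 in nonTx. Of the 8 tested, 2 were higher in Tx at an unadjusted limma p under 0.05, against 8.65% of all genes. All Tx arrays were above all nonTx arrays for 2 of the 8, against 5.11% of all genes. The untested markers, Adipoq, Plin1, Cfd, Retn and Ucp1, passed the background flag on 0 of the 8 arrays. The tested ones were Lep, Fabp4, Lpl, Adrb3, Pparg, Car3, Cidec and Lipe. The part of fat cells in these levels was not tested.

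**Figure D4:**
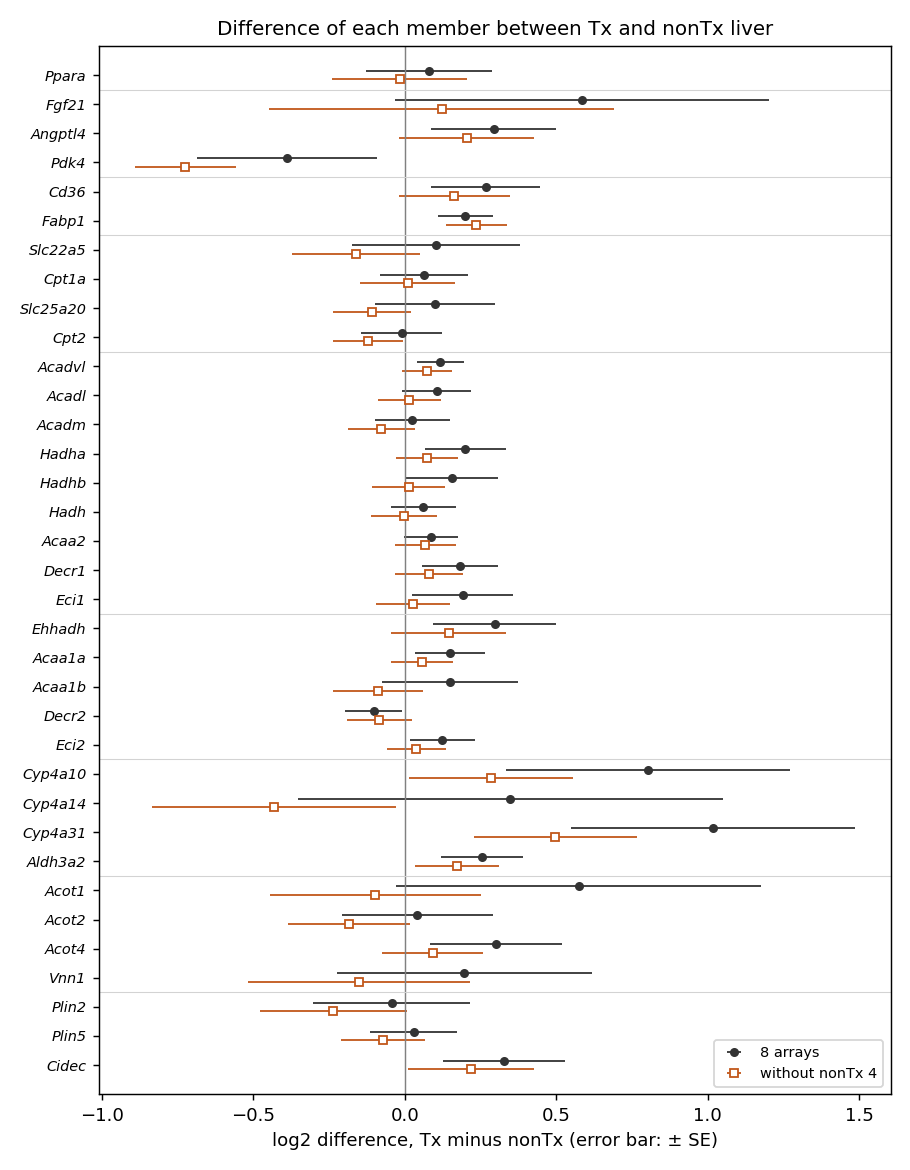
Log2 difference of each of the 35 members, Tx minus nonTx, with bars of 1 SE, for all 8 arrays (filled circles) and without nonTx replicate 4 (open squares). With all arrays 31 members lie above 0 and Cyp4a31, Cyp4a10, Fgf21 and Acot1 lie furthest right, while without nonTx replicate 4 only 20 members lie above 0 and Pdk4 lies furthest left.

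In a wider list of 123 genes of the same pathways, none passed the test either. Of these, 120 were tested, 98 with a higher mean in Tx and 22 with a lower one, and the median difference was 0.12. All Tx arrays were above all nonTx arrays for 6 of the 120, against 5.11% of all genes, and below for 1, against 2.95%. At an unadjusted p under 0.05 there were 12 with a higher mean in Tx, against 8.65% of all genes, and 2 with a lower one, against 5.25%, and by limma 0 had an adjusted p under 0.05. Of the 12, 10 were well above background on at least 3 arrays of both groups. Under quantile normalization 66 of 120 had the higher mean in Tx.

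Of that list, Fabp4, a fatty acid binding protein of fat cells, macrophages and capillaries, had the smallest p. Its levels were 4.55, 3.95, 3.96 and 4.43 in Tx, against 2.90, 2.76, 3.71 and 2.88 in nonTx, and all Tx arrays were above all nonTx arrays. The difference was 0.47 ± 0.11 (SE; limma adjusted p = 0.265). Fabp4 is also in the adipocyte marker list, whose part in it was not tested. Angptl8, a feeding-induced hormone that works on lipoprotein lipase, differed by 0.64 ± 0.21, and Gpihbp1, which holds that lipase on capillaries, by 0.30 ± 0.10. Cyp4a12a, which is counted among the 12, entered the test only through its Tx arrays. It was well above background on 3 of 4 Tx arrays and 1 of 4 nonTx arrays, so the size of its difference was not measured on both sides and is not given. Acot7 differed by 0.29 ± 0.10. The lower 2 were Slc27a4, a fatty acid transport protein, by -0.44 ± 0.10, with all Tx arrays below all nonTx arrays, and Nrip1, a corepressor of nuclear receptors, by -0.43 ± 0.16. Their limma adjusted p ranged from 0.268 to 0.328.

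Genes that follow feeding and the time of day were read beside the members, since neither is given for these mice. Of 20 fasting and gluconeogenesis genes, 15 had a higher mean in Tx and 5 a lower one, with a median of 0.09. G6pc, the last step of glucose release, had levels of 65.7, 51.6, 59.6 and 45.8 in Tx, against 78.6, 71.2, 90.5 and 102 in nonTx. All Tx arrays were below all nonTx arrays, and the difference was -0.62 ± 0.14 (SE; limma adjusted p = 0.248). Irs2, an insulin signalling adaptor that fasting raises, differed by -0.43 ± 0.14 (limma adjusted p = 0.313). Lpin1, a phosphatidate phosphatase and a partner of PPAR alpha, differed by 1.08 ± 0.53 (limma adjusted p = 0.405). On nonTx replicate 4, 33 of 35 members were below the mean of the other nonTx arrays, while Fabp1 and Decr2 were not. G6pc had its highest level on that array, and 8 of the 20 fasting and gluconeogenesis genes were lower on it.

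Of 14 tested clock genes, 10 had a higher mean in Tx, and the median was 0.26. Cry2, a repressor of the clock, differed by 0.32 ± 0.10 (limma adjusted p = 0.313) and Ciart, another repressor, by 1.44 ± 0.74 (limma adjusted p = 0.414). Arntl, which encodes the activator BMAL1, differed by -0.77 ± 0.50 (limma adjusted p = 0.494). Its level was 0.323 in Tx replicate 1, against 1.66 to 2.0 in the other Tx livers and 1.64 to 2.76 in nonTx. The part of feeding or time of day in the levels of the members was not tested.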

How the data were processed

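Liver RNA of 4 Tx and 4 nonTx mice was measured on 1-colour Agilent arrays. Per the file headers, the deposited scanner intensity was background-subtracted with Feature Extraction 10.7.1.1; the submitters' processing notes name version 9.1. In the deposited table the authors give these intensities again, beside log2 values that were rebuilt within 0.00161 by scaling each array to its 75th percentile, taking log2 and centring on each probe's median; its column medians were -0.12, 0.09, 0.05 and 0.15 for Tx and 0.03, -0.05, -0.06 and -0.07 for nonTx.

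Outlier spots were set to missing (54 to 120 per array) and spots of a probe were averaged, which gave 56605 probes. Log2 intensities, scaled to the 75th percentile over probes and not centred, were fitted in R 4.3.3 by the lmFit and eBayes functions of limma 3.58.1 (trend on, 6 residual degrees of freedom, two-sided), with Benjamini-Hochberg adjustment over 30955 probes. A probe was tested if either group had 3 or more of its 4 arrays well above background. A gene was its brightest tested probe. Symbols came from the files, matched to RefSeq for 43901 of 46119 probes with a symbol or ID. Coordinates are those of the GRCm38 table; the headers name another build and no coordinates were taken from them. The fit was tested on simulated data with independent noise for each probe. Those data held no shift shared by many genes of an array, so the fit was not tested in that setting.

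The members and all gene lists were chosen with earlier results of these data known. A member is given array by array if it was among the 10 smallest unadjusted p, the 6 largest differences, the 4 largest standard deviations within a group, or was the brightest of its role. Of the wider list, up to 5 genes per direction, and of the fasting and clock lists 3 each, are named by p. The alternatives tried were other scalings, background correction, filters, probe summaries, weights, a replicate block and leaving out each array. Precision is limited by 4 arrays per group.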

Additional observations from a re-analysis of the deposited data

Results flagged for a closer look

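In each group of 4 arrays, the gap between the lowest or highest value and its nearest neighbour was divided by the range, and a ratio above Dixon's critical value for 4 samples was taken as standing apart. This was done for 70 groups of member values, of which 3 stood apart; chance alone gives about 5% of such groups. All 3 were low values of Tx replicate 2. Pdk4 had a level of 1.40 there, against 2.02 to 2.17 on the other Tx arrays (ratio 0.835). Cyp4a14 had a level of 0.427, against 1.25 to 1.50 (ratio 0.856). Acot1 had a level of 18.9, against 47.1 to 53.9 (ratio 0.870). The cause was not tested.

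Tx replicate 2 was the lowest Tx array for 17 of 35 members, against 23.3% of all genes, but the lowest of all 8 arrays for 0. Without it, 4 members (Acadvl, Acot4, Cyp4a10 and Cyp4a31) had all Tx arrays above all nonTx arrays, against 9.72% of all genes. Over all genes, 136 then had an adjusted p under 0.05, against 0 with all arrays. None of the 35 members was among them, and the smallest adjusted p of a member was 0.241.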

How the results depend on the processing

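No member had an adjusted p under 0.05 under any of the 19 alternatives. With all arrays, 0 members had an unadjusted p under 0.05, 1 had groups that did not overlap, 31 were higher, and 14 of the wider list had an unadjusted p under 0.05 (13.9% of all genes). Median scaling gave a median of 0.13 over all genes, against 0.03, and of 0.25 over the members, and gave 4 members under 0.05 (21.4% of all genes), 2 without overlap (12.4%) and 36 of the wider list. Quantile normalization gave 1 under 0.05 (Decr2, lower; 11.1% of all genes), 20 higher members and 9 of the wider list, and normexp with quantile normalization gave 1 (11.4%), 21 higher and 9. Array weights gave 1 (Fabp1; 16.4% of all genes). The replicate block gave 1 (Cyp4a31; 13.7%), and same-numbered arrays did not pair (correlations -0.01 to 0.10). Leaving out 1 array gave 0 to 4 members under 0.05 (9.73% to 20.9% of all genes), 1 to 4 without overlap (9.97% to 19.2%), 20 to 33 higher, a member median of 0.02 to 0.22, and 7 to 27 of the wider list.

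Of 380 values of the 20 members given by array, 359 kept their sign, and 21, in 7 members, changed sign. The side of the adjusted p threshold could not change, since no member passed it under any alternative. The 20 were picked partly by small p and large difference. Of the members not given by array, all but Decr2 and Acot4 changed sign under at least 1 alternative, Plin5 under 6 and Acadm under 5. The cause was not tested. Ppara was -0.070 under quantile normalization, -0.078 under normexp, and -0.086 (without Tx replicate 1) to 0.24 with 1 array left out. Cpt2 was 0.090 under median scaling, 0.065 over the mean of its probes, and -0.12 to 0.092 with 1 array left out. Acadvl was -0.030 under quantile normalization and -0.072 under normexp, and Acaa1a was -0.0042 under quantile normalization. Cyp4a14 was -0.056 with array weights, and -0.43 (without nonTx replicate 4) to 0.77 with 1 array left out. Acot1 was -0.097 without nonTx replicate 4 and up to 0.92 without Tx replicate 2. Plin2 was 0.058 under median scaling, 0.032 with array weights, 0.015 over the mean of its probes, and -0.24 to 0.17 with 1 array left out. A slide block was not run, since there was 1 slide. Dim signal limits Cyp4a12a and Cidea.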

Other observations

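Tx replicate 2 and nonTx replicate 4 had the lowest Cyp4a10, Cyp4a14 and Acot1 levels and the highest median of interferon gamma response genes. For Cyp4a31 this held only in part, since nonTx replicate 2 (111) was below Tx replicate 2 (123). The response list held 22 genes, of which 21 were tested (guanylate binding proteins, immunity-related GTPases, Irf1, Cxcl9 and the like). It was added after its values were known, so no test is given. Relative to each gene's mean over the 8 arrays, its median log2 level was -0.94, 1.04, -0.57 and -0.61 on Tx replicates 1 to 4, and -0.72, 0.40, 0.40 and 0.80 on nonTx replicates 1 to 4. The same median over the 35 members was 0.07, -0.08, 0.12 and 0.18 in Tx, and 0.19, -0.15, 0.15 and -0.48 in nonTx. In both groups, the array with the highest median for the response genes had the lowest median for the members. The other arrays did not follow an inverse order throughout. Tx replicate 1 had the lowest median for the response genes, -0.94, but a member median below those of Tx replicates 3 and 4. nonTx replicates 2 and 3 both had 0.40 for the response genes, beside member medians of -0.15 and 0.15. nonTx replicate 3 also had the highest Cyp4a14 level of the 8 arrays, 1.74. The relation was not tested.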
